A study of Mus musculus with 12 samples.

Results

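Mature microRNAs of primordial germ cells (PGCs), from which eggs and sperm descend, were compared with those of gonadal somatic cells (SC) on embryonic day 11.5 (E11.5), when germ cells have entered the gonad and female and male gonads still look alike. The comparison uses 4 of the 12 small-RNA libraries of the study, namely PGC and SC of female embryos and PGC and SC of male embryos, all from CD1 mice, and all 616 listed microRNAs. The other 8 libraries hold the same fractions on E12.5 and E13.5 and serve to estimate the spread between libraries. Per the labels, embryos were sexed by PCR, the mesonephros was cut away, and groups of about 80 gonads were pooled and passed over a magnetic column with beads against CD15, a surface sugar of PGCs, so the PGC libraries are the bead-bound fraction and the SC libraries the unbound one. The submitters state that PGCs made up 93 to 96% of the bound cells, judged by staining, and somatic cells over 90% of the unbound ones. Each combination of fraction, stage and sex was sequenced as 1 library, so the 2 libraries of a fraction at E11.5 differ in sex. The PGC and SC libraries of females are called the female pair here, and those of males the male pair.

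MicroRNAs are short RNAs that guide Argonaute proteins to messenger RNAs, mainly by pairing of the seed near their 5′ end, and lower the output of those messengers. The miR-290 cluster (miR-290a to miR-295) is transcribed as 1 precursor in embryonic stem cells and early embryos. There, several of its 3p arms, but not miR-293-3p, belong to a seed group that speeds the cell cycle and holds cells in the pluripotent state. PGCs share much of this pluripotency programme and are known to express miR-290 microRNAs. Related seeds are carried by the miR-302 cluster, by the miR-17/92 cluster and by its X-linked paralogue miR-106a/miR-363. In somatic cells of the gonad, miR-143/miR-145 and miR-199a/miR-214 are known from mesenchyme and smooth muscle, and the imprinted Dlk1-Dio3 microRNAs from fetal tissues of many kinds.

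The differences of the male pair lay mainly in groups of microRNAs that share a position and often a seed, so their mature sequences are shown first, written 5′ to 3′ with the seed (bases 2 to 8) in capitals. They come from RefSeq (GRCm38.p6), which matched 526 of the 616 names. The miR-290 cluster lies on the plus strand of chromosome 7, where the matched arms run from 3218639 to 3220837. Of its 5p arms, those of miR-290a, miR-292a and miR-293 share CUCAAAC, and those of miR-291a and miR-291b share AUCAAAG. The 5p arms of miR-294 (CUCAAAA) and miR-295 (CUCAAAU) carry other seeds and are not printed. Among its 3p arms, 3 share AAGUGCU with miR-302b-3p and miR-302d-3p:
miR-290a-5p: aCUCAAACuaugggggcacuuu
miR-292a-5p: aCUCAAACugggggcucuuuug
miR-293-5p: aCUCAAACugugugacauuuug
miR-291a-5p: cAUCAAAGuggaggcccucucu
miR-291b-5p: gAUCAAAGuggaggcccucucc
miR-291a-3p: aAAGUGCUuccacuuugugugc
miR-294-3p: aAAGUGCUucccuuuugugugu
miR-295-3p: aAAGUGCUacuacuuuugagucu
miR-302b-3p: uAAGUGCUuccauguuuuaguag
miR-302d-3p: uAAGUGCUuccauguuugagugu
miR-293-3p: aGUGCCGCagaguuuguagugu
The X-linked miR-106a/miR-363 cluster lies on the minus strand of chromosome X (52741697 to 52742563). Its miR-106a-5p and miR-20b-5p carry AAAGUGC, the same letters moved by 1 base, and share this seed with miR-17-5p of the miR-17/92 cluster on chromosome 14:
miR-106a-5p: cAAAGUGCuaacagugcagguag
miR-20b-5p: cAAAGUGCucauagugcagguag
miR-17-5p: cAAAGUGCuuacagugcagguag
miR-182 and miR-183 come from 1 cluster on the minus strand of chromosome 6 (30165923 to 30169732), known from sensory organs and germ cells, and differ in their seeds:
miR-182-5p: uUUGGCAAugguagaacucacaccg
miR-183-5p: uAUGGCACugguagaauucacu
The miR-200 family, which restrains the factors that drive epithelial cells towards mesenchyme, has miR-200b-3p and miR-200c-3p with the seed AAUACUG:
miR-200b-3p: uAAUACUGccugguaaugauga
miR-200c-3p: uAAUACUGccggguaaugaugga

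The 4 libraries held 1221211 (PGC female), 432830 (PGC male), 1768825 (SC female) and 611229 (SC male) microRNA reads, taken back from the deposited normalized counts. Levels are given as reads per 1000000 microRNA reads of a library (RPM). A deposited 0 stands for under 5 reads, a floor of 4.09, 11.6, 2.83 and 8.18 RPM in the same order. Of the 616 microRNAs, 586 had reads in at least 1 of the 4 libraries, 411 in all 4 and 30 in none. On the deposited scale the values of PGC female summed to 0.416 and those of PGC male to 0.532 of the SC library of the same sex. A PGC to SC ratio in RPM that lies above 1 but under 2.40 in the female pair, or under 1.88 in the male pair, is therefore below 1 on the deposited scale.

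The library labelled PGC female E11.5 stood closer to the somatic libraries of E11.5 and E12.5 than to any other germ cell library. Across all 616 microRNAs, its log2(RPM + 10) correlated at Pearson r = 0.969 with SC female and 0.967 with SC male of E11.5, at 0.969 to 0.971 with those of E12.5, at 0.945 and 0.895 with SC female and SC male of E13.5, at 0.940 with PGC male, and at 0.768 to 0.818 with the 4 later PGC libraries. PGC male was not nearer to one fraction, with 0.906 and 0.898 for the SC libraries of E11.5, 0.890 to 0.925 for the later SC libraries and 0.879 to 0.905 for the later PGC libraries. These correlations are across microRNAs, which are not independent replicates, and share the abundant microRNAs common to all gonad cells. The defining PGC list, the miR-290 cluster, took 0.235% of the reads of PGC female (95% exact binomial interval 0.226 to 0.244%, counting error only) and 7.13% (7.05 to 7.21%) of PGC male. In the SC libraries it took 0.0336% (female) and 0.0244% (male), and in the later PGC libraries 9.78 to 14.3%. The bead-bound female library thus held the germ cell list above its SC partner, but 30.4-fold lower than PGC male. With 1 library of each, a female to male difference between germ cells and a difference in the isolation cannot be told apart, and neither can fewer germ cells and less microRNA per germ cell. The counts that use both PGC libraries are therefore also given without this one, and the pairs are described apart.

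**Figure D1:**
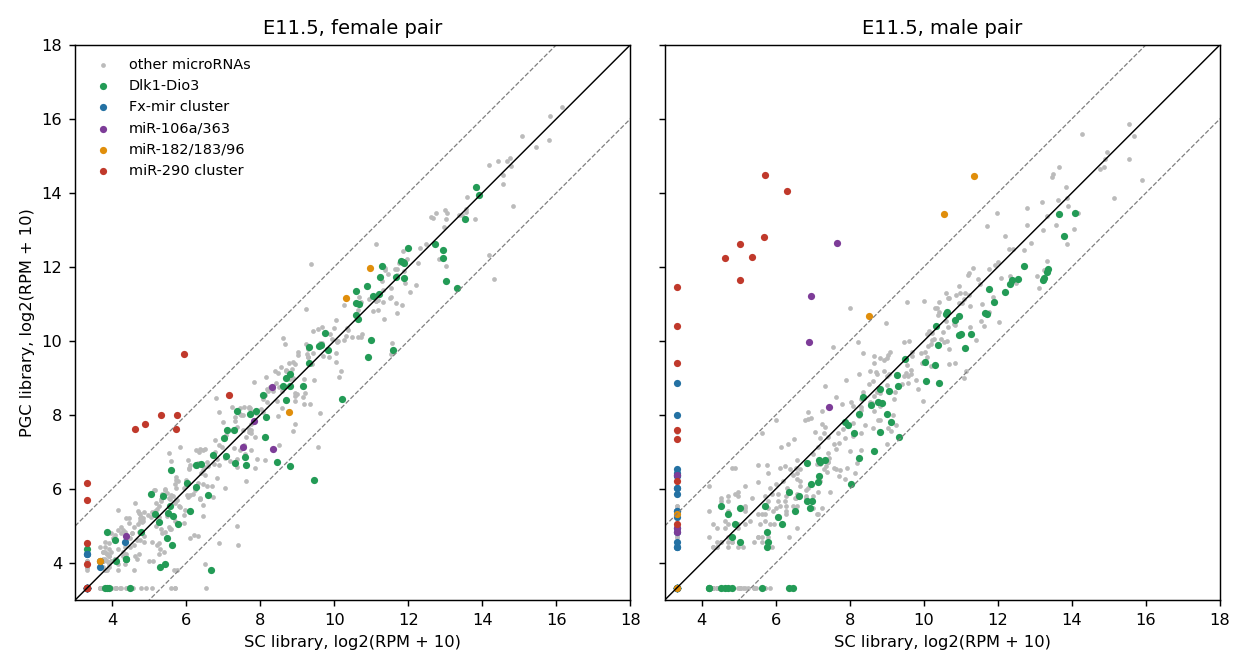
Level of each of the 616 microRNAs in the PGC library (vertical) against the SC library (horizontal) of the same sex at E11.5, both as log2(RPM + 10); the solid line marks equal levels and the dashed lines a 4-fold difference, and colours mark 5 clusters. In the male pair many, but not all, of the miR-290, miR-182/miR-183/miR-96, miR-106a/miR-363 and Fx-mir microRNAs leave the diagonal. In the female pair only miR-290 members lie as a group above the upper dashed line.

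In the fit over both pairs, no microRNA passed the test on log2(RPM + 10). In limma's moderated test (adjusted p under 0.05, Benjamini-Hochberg over the 473 microRNAs with a mean of at least 10 RPM in the 12 libraries, female and male libraries as the 2 samples of a group) the share called was 0.0% in either direction, with 42 at an unadjusted p under 0.05 and a smallest adjusted p of 0.0895. The same test on recovered reads with voom weights also called 0, with 44 at an unadjusted p under 0.05. On the deposited scale the test called 9 higher and 6 lower, and in RPM with a pseudocount of 1 it called 2 and 1. Without the library labelled PGC female, PGC male against both SC libraries gave 29 higher and 6 lower. These 29 include all 14 miR-290 members, 7 of 26 Fx-mir members, 4 of 7 miR-106a/miR-363 members and 3 of 4 miR-182 cluster members. Without PGC male, the library labelled PGC female gave 5 higher and 0 lower against the same SC libraries, and all 5 were miR-290 arms: miR-292a-5p (log2 3.81 ± 0.60, SE), miR-295-3p (2.28 ± 0.42), miR-291a-3p (2.63 ± 0.49), miR-294-3p (2.83 ± 0.50) and miR-292a-3p (2.995 ± 0.549), each with a limma adjusted p of 0.0375. An exact permutation test of 2 against 2 libraries cannot go below 1 in 3, so single values carry no p of their own.

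Ranges without overlap occurred in similar shares in both directions. With 2 against 2 libraries, and more so with a single library against 2, such ranges also arise often when library order is random. The shares over all microRNAs therefore show no separation of the fractions by themselves. Both PGC libraries lay above both SC libraries for 78 of the 473 microRNAs (16.5%) and below them for 83 (17.5%), with a listed 0 taken as 0. With 5 reads in place of a listed 0, a setting added after seeing the data, the counts were 75 and 81. PGC male alone lay above both SC libraries for 29.6% and below them for 41.0% of the 473, and the library labelled PGC female for 29.0% and 26.4%. The upper group held 11 of the 14 miR-290 members (10 with 5 reads for a 0), 3 of 4 tested miR-182 cluster members (2 with 5 reads for a 0), 7 of 11 miR-30 members and 3 of 7 miR-200 members. Summed over its arms, however, miR-30 stood at 0.571 of SC in the female pair and 1.22 in the male pair. The lower group held 25 of 76 Dlk1-Dio3 members, 4 of 6 miR-199a/miR-214 members and 3 of 4 miR-143/miR-145 members. The 3 with the smallest p in each direction did not pass the threshold. These were miR-292a-5p (log2 6.22 in the both-pairs fit), miR-292a-3p (5.23) and miR-294-3p (5.14) on the higher side, and miR-376a-3p (-2.05), miR-341-5p (-1.85) and miR-490-3p (-1.40) on the lower side. Without the library labelled PGC female these values were 8.63, 7.47, 7.45, -1.67, -2.14 and -1.66, and each of them but that of miR-376a-3p (limma adjusted p = 0.121) passed. miR-376a-3p and miR-341-5p belong to Dlk1-Dio3.

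In the male pair, limma called 30 microRNAs (6.34%) as different between the PGC library and the SC library, 1 library each. It called 25 higher in PGC male (5.29% of the 473 tested) and 5 lower (1.06%). In this fit each E11.5 library stands alone and is assumed to vary like the female and male libraries of the later stages. The E11.5 libraries themselves could lie far apart. Of 289 microRNAs, 24 were at least 4-fold higher and 1 at least 4-fold lower in PGC male than in PGC female. The fit over both pairs, which includes the spread between E11.5 libraries, called 0. The 30 calls thus describe 1 pair of libraries and not PGCs in general. The split between higher and lower depended on the scaling and the filter, with 18 higher and 18 lower on the deposited scale and 30 and 23 without a filter. Among the 309 microRNAs of at least 100 RPM in either library, 25 (8.09%) were at least 4-fold higher and 5 (1.62%) at least 4-fold lower. Of the 25 called higher, 13 were miR-290 arms, 5 Fx-mir arms, 3 arms of miR-106a/miR-363, 3 arms of the miR-182 cluster and 1, miR-669d-5p, an arm of the Sfmbt2 cluster. By position, 12 of the 22 with a RefSeq entry lay on chromosome 7 (54.5%, against 9.27% of the tested microRNAs with an entry) and 7 on chromosome X (31.8% against 18.05%).

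The miR-290 cluster gave the largest differences, and 13 of its 14 arms passed as higher in the male pair. miR-292a-5p, its most abundant arm, stood at 22656 RPM in PGC male and 42.5 RPM in SC male, while PGC female held 789 RPM and SC female 52.0 RPM. The level in PGC male was far above the other 3 libraries, while PGC female lay between it and SC. The ratio of the male pair was 533 (95% interval 363.3 to 816, counting error only; limma log2 8.75 ± 0.73, SE, adjusted p = 0.000485) and that of the female pair 15.2 (12.24 to 19.01). In deposited normalized counts, miR-292a-5p read 8373 and 29.6 in the male pair and 709 and 112 in the female pair, ratios of 283 and 6.31.

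Among the 3p arms, miR-293-3p stood at 16921 RPM in PGC male and 68.7 RPM in SC male, against 362.8 RPM in PGC female and 133.4 RPM in SC female. Its ratio was 246 (182 to 342) in the male pair and 2.72 (2.32 to 3.20) in the female pair, the smallest female-pair ratio among the 7 arms with reads in SC. miR-295-3p stood at 7199 and 40.9 RPM (male PGC and SC) and at 244 and 43.5 RPM (female PGC and SC), and miR-294-3p at 6330 and 22.9 RPM and at 248 and 29.96 RPM. miR-291a-3p followed with 4910 and 31.1 RPM in the male pair and 187 and 14.7 RPM in the female pair, and miR-292a-3p with 4817 and 14.7 RPM and with 206.4 and 19.8 RPM. All 4 had the order PGC male, PGC female, then both SC libraries.

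Several arms of the cluster had no value in SC, so they could not be called lower. miR-291a-5p stood at 2805 RPM in PGC male and 61.4 RPM in PGC female and was listed at 0 in both SC libraries, which makes it at least 343-fold higher in the male pair and at least 21.7-fold higher in the female pair. miR-290a-5p (1354 and 41.8 RPM in PGC male and PGC female) was at least 166-fold and at least 14.8-fold higher. miR-291b-5p (672 and 13.1 RPM) and miR-291b-3p (182.5 and 5.73 RPM) were also listed at 0 in both SC libraries. miR-294-5p (153 RPM), miR-295-5p (64.7 RPM) and miR-290a-3p (23.1 RPM) had reads in PGC male alone, and miR-290a-3p was the arm that missed the threshold (limma adjusted p = 0.0714).

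**Figure D2:**
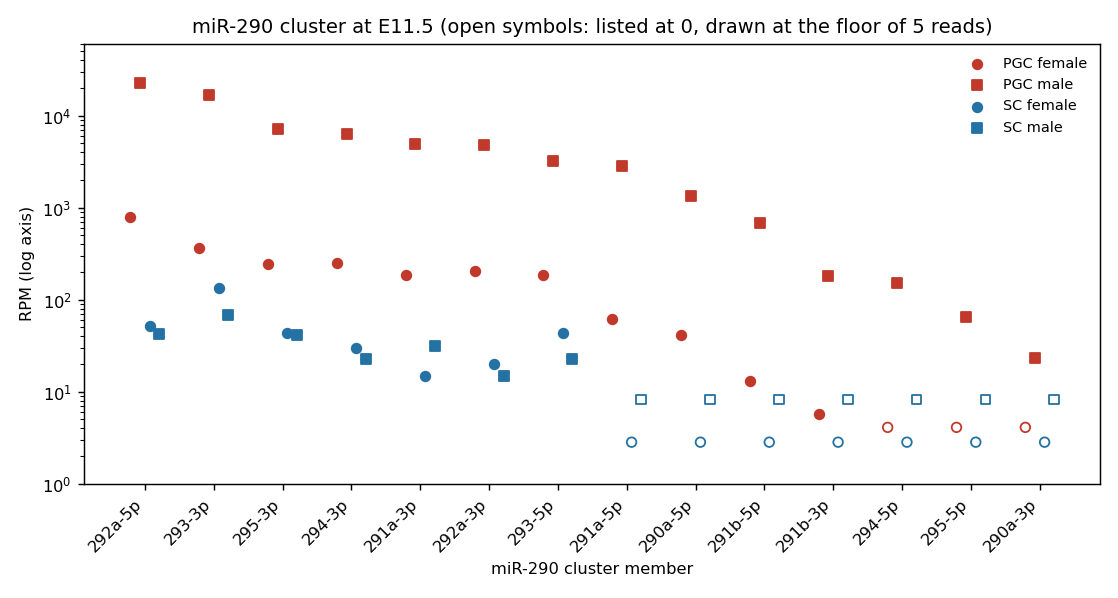
RPM of the 14 listed miR-290 cluster arms in the 4 libraries of E11.5, on a log axis, ordered by PGC male; open symbols are arms listed at 0, drawn at the floor of 5 reads of that library. PGC male (red squares) lies above PGC female (red circles) for every arm, and PGC female above both SC libraries (blue) for each of the 11 arms it detects except miR-291b-3p, whose 5.73 RPM is under the floor of SC male.

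The makeup of the cluster was compared to see whether the lower levels held the same arms. miR-292a-5p supplied 33.6% of the cluster's reads in PGC female and 31.8% in PGC male, but 15.5% in SC female and 17.4% in SC male. At the later stages its shares overlapped, with 27.8 to 44.7% in the PGC libraries and 19.3 to 36.1% in the SC libraries. miR-293-3p supplied 15.5% in PGC female, 23.7% in PGC male, 39.7% in SC female and 28.2% in SC male. Its later shares overlapped too, with 4.07 to 24.9% in the PGC libraries and 14.8 to 27.3% in the SC libraries. The makeup thus did not separate the fractions at the later stages. The SC values of E11.5 rest on 595 (female) and 149 (male) reads for the whole cluster. The balance of arms within a hairpin was alike in the fractions for miR-292a, whose 5p arm held 79.3% (PGC female), 82.5% (PGC male), 72.4% (SC female) and 74.3% (SC male) of its reads. For miR-293 the 5p arm held 34.1% in PGC female against 15.9% in PGC male, 24.4% in SC female and 25% in SC male. No test bears on these shares, since each is 1 library.

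Of the 7 arms of the X-linked miR-106a/miR-363 cluster, 3 rose in the male pair and 0 passed in the female pair. miR-20b-5p, which shares its seed with miR-17, stood at 6356 RPM in PGC male and 193 RPM in SC male (32.9-fold; limma log2 4.97 ± 0.63, SE, adjusted p = 0.00428) and at 423 and 308 RPM in the female pair. miR-106a-5p stood at 2354 and 113 RPM in the male pair (20.9-fold; limma log2 4.27, adjusted p = 0.00759) and at 220 and 216 RPM in the female pair. PGC male was thus the only library of the 4 with high levels of either. miR-363-5p (73.9 RPM in PGC male, listed at 0 in SC male) also passed, while miR-363-3p (993 and 110 RPM in the male pair, 131 and 174 RPM in the female pair) did not (limma adjusted p = 0.0559). Summed over its 7 listed arms, the cluster was 17.4-fold higher in the male pair and 0.894 of the SC level in the female pair. The other members of the miR-17/92 list did not pass. miR-20a-5p stood at 49387 and 19883 RPM in the male pair and at 26967 and 28066 RPM in the female pair, and miR-17-5p at 26726 and 12943 RPM and at 17879 and 14947 RPM.

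miR-182-5p and miR-183-5p rose in the male pair and lay above SC in the female pair too. miR-182-5p stood at 22489 RPM in PGC male and 2631 RPM in SC male (8.55-fold; limma log2 3.09 ± 0.67, SE, adjusted p = 0.0415), and at 3985 and 1992 RPM in the female pair (2.001-fold). miR-183-5p stood at 11046 and 1472 RPM in the male pair (7.502-fold; limma adjusted p = 0.0343) and at 2295 and 1264 RPM in the female pair (1.82-fold). Both female ratios fall below 1 on the deposited scale (0.832 and 0.756). The third member of the cluster, miR-96-5p, stood at 1617 and 355 RPM in the male pair and at 263 and 427 RPM in the female pair and did not pass.

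The Fx-mir cluster, X-linked microRNAs known from the testis, was at the edge of detection in 3 of the 4 libraries. Of its 31 listed arms, 17 had reads in PGC male, 5 in PGC female, 3 in SC female and 0 in SC male. No arm could therefore be called lower in the male pair. The arms named below passed the filter on the mean largely through PGC libraries, so the direction of their calls was fixed in advance. Of the 26 tested, 5 passed as higher in the male pair. miR-881-3p stood at 455 RPM in PGC male, 13.9 RPM in PGC female and 10.2 RPM in SC female and was listed at 0 in SC male, at least 55.6-fold higher in the male pair (limma adjusted p = 0.00373). miR-741-3p stood at 245 RPM in PGC male and 9.01 RPM in PGC female and was listed at 0 in both SC libraries. miR-878-5p, miR-880-3p and miR-871-3p, with 83.2, 76.2 and 73.9 RPM in PGC male, also passed. Summed, the cluster reached 0.133% of the reads of PGC male, under the 0.433 to 3.24% of the later PGC libraries.

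The lower side of the male pair rested on low levels. Of the 5 called lower, miR-323-5p (78.5 RPM in SC male), miR-377-5p (72.0 RPM), miR-341-5p (39.3 RPM) and miR-3074-5p (32.7 RPM) were listed at 0 in PGC male, whose floor is 11.6 RPM. Their bounds are at least 6.80-fold, 6.23-fold, 3.40-fold and 2.83-fold lower. The first 3 are Dlk1-Dio3 arms. miR-490-3p, the fifth, stood at 34.7 RPM in PGC male and 142.3 RPM in SC male (4.11-fold lower; limma log2 -1.77, adjusted p = 0.0269), and at 54.9 and 122 RPM in the female pair, so both SC libraries lay above both PGC libraries. Among abundant microRNAs, the 5 lowest ratios of the male pair were those of miR-149-5p (499 and 2173 RPM), miR-667-3p (159 and 632 RPM), miR-483-5p (578 and 2241 RPM), miR-455-3p (139 and 504 RPM) and miR-615-3p (2747 and 8759 RPM), and none of the 5 passed. In the female pair each of these 5 was 1.05-fold to 1.68-fold higher in PGC. Their male-pair log2 differences were -2.10, -1.92, -1.94, -1.79 and -1.67 in the order listed. SC male minus SC female was 2.20, 1.94, 1.87, 2.22 and 1.39 for the same microRNAs. The low ratios thus compare PGC male with an SC library that itself stood above SC female, and a lower level in germ cells was not tested apart from this.

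GC content of the mature microRNA moved with the male pair. Over the 410 tested microRNAs with a RefSeq sequence, Pearson r between GC content and the log2 difference of the male pair was -0.288 and Spearman rho -0.397, and for the female pair r was 0.0242. The median log2 difference of the male pair was 0.09 in those with the lowest GC content (up to 42.9%) and -0.71 in those with the highest (above 50%). The difference between the somatic libraries themselves, SC male minus SC female, had r = 0.527, with medians of -0.29 and 0.69 in the same groups, while PGC male minus PGC female had r = -0.0720. The 5 microRNAs called lower had a median GC content of 59.1%, and the 22 called higher with a sequence 45.5%, against 47.6% for all tested. The part of GC content in the calls was not tested, and the correlations are descriptions across microRNAs that share 4 libraries.

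**Figure D3:**
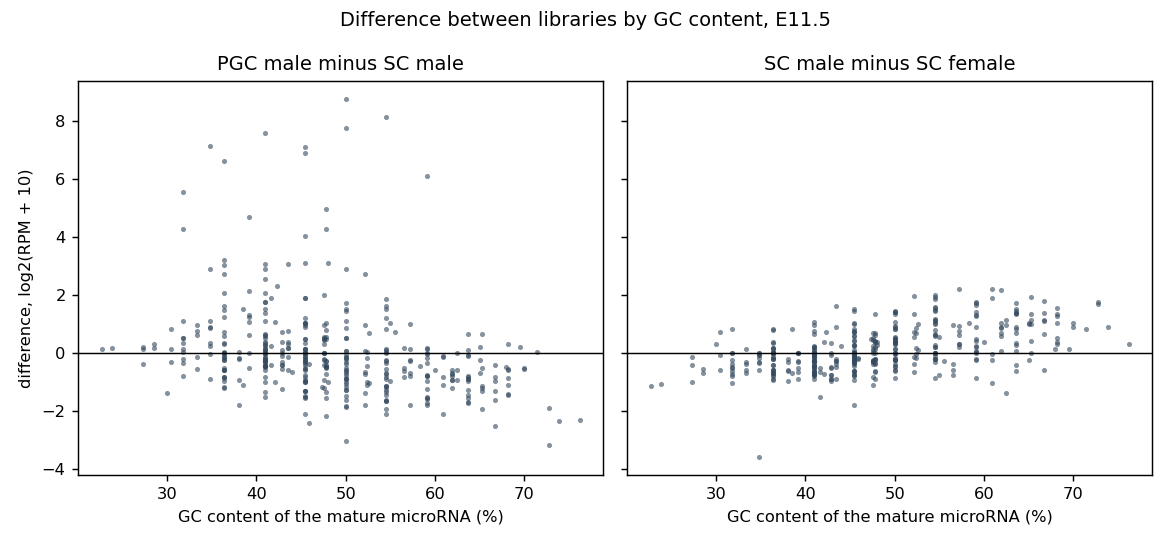
Difference between libraries in log2(RPM + 10) against the GC content of the mature microRNA in percent, for 410 tested microRNAs; left, PGC male minus SC male, right, SC male minus SC female. GC-rich microRNAs lie mostly below 0 on the left and mostly above 0 on the right.

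In the female pair no microRNA passed the limma test on log2(RPM + 10). The share called was 0.0% in either direction, with 24 at an unadjusted p under 0.05 and a smallest adjusted p of 0.1696, and voom weights called 2 higher and 1 lower. On the deposited scale 0 passed as higher and 22 as lower, and without a filter 14 and 22. Among the 286 microRNAs of at least 100 RPM in either library, 7 (2.45%) were at least 4-fold higher in PGC female and 7 (2.45%) at least 4-fold lower. The 7 higher were 6 miR-290 arms and miR-122-5p. The miR-290 arms, in order of ratio, were miR-292a-5p (15.2), miR-291a-3p (12.8), miR-292a-3p (10.4), miR-294-3p (8.28), miR-295-3p (5.61) and miR-293-5p (4.36).

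miR-122-5p, the microRNA of hepatocytes, stood at 4280 and 653 RPM in the female pair (PGC and SC, 6.55-fold) and at 2015 and 3023 RPM in the male pair (0.666). It was listed at 0 to 43.4 RPM in the later PGC libraries and at 0 to 842 RPM in the later SC libraries, and at E11.5 its order did not follow the fraction. The next largest ratios among microRNAs of at least 500 RPM were those of miR-200c-3p (1833 and 596 RPM, 3.08-fold), miR-375-3p (1077 and 379 RPM, 2.84-fold) and miR-200b-3p (6236 and 2214 RPM, 2.82-fold). miR-200b-3p had the same ratio in the male pair (11258 and 3994 RPM, 2.82-fold), whereas miR-200c-3p was 1.31-fold higher and miR-375-3p 0.549 of SC there. Of the 7 tested miR-200 members, 5 were higher in PGC in the female pair. miR-200a-3p and miR-141-3p were lower there (log2 -0.87 and -0.95) and higher in the male pair (1.39 and 1.09). miR-200b-3p did not pass in either pair.

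The 7 lower in the female pair were miR-136-5p, miR-144-3p, miR-324-5p, miR-219a-2-3p, miR-30e-5p, miR-32-5p and miR-127-5p. miR-136-5p stood at 65.5 and 695 RPM in the female pair (10.6-fold lower) and at 307 and 460 RPM in the male pair. miR-30e-5p, one of the most abundant of the miR-30 family, stood at 3258 and 20321 RPM in the female pair (6.24-fold lower) and at 8932 and 12205 RPM in the male pair. miR-32-5p stood at 129 and 746 RPM in the female pair and at 543 and 527 RPM in the male pair. In each of these 3, PGC female was the lowest of the 4 libraries. miR-199b-5p (788 and 2961 RPM) and miR-381-3p (2724 and 10206 RPM) were 3.76-fold and 3.75-fold lower in the female pair, and 1.22-fold and 1.68-fold lower in the male pair.

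The difference between the pairs was tested directly and passed for 12 microRNAs (2.54%). limma called 11 microRNAs whose PGC minus SC difference was lower in the female than in the male pair (2.33%) and 1 in which it was higher (0.211%). The 11 were 9 miR-290 arms, miR-881-3p and miR-669d-5p, and the 1 was miR-323-5p. miR-293-3p gave the largest gap, with a log2 difference between the pairs of -6.37 (limma adjusted p = 0.0410), the smallest adjusted p in this comparison. miR-292a-5p (-5.06, adjusted p = 0.0611), miR-20b-5p (-4.52, adjusted p = 0.0562) and miR-106a-5p (-4.24, adjusted p = 0.0622) did not pass. These calls depend on single libraries: without any 1 of the PGC libraries of E13.5 or the SC libraries of E12.5 the test called 0 higher and 0 lower, and voom weights called 0 with 62 at an unadjusted p under 0.05. Within a fraction, 11 of 298 microRNAs were at least 4-fold higher and 4 at least 4-fold lower in SC male than in SC female, and 24 of 289 were higher and 1 lower in PGC male than in PGC female.

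Reads were next summed by seed, since microRNAs of 1 seed act on shared messengers. Of the 220 seeds with at least 100 RPM in any of the 4 libraries, AUCAAAG (miR-291a-5p and miR-291b-5p) and CUCAAAC (miR-290a-5p, miR-292a-5p and miR-293-5p) had the highest PGC to SC ratios in both pairs. CUCAAAC stood at 27207 and 65.4 RPM in the male pair (416-fold) and at 1019 and 94.98 RPM in the female pair (10.7-fold). AAGUGCU, which the miR-290 arms miR-291a-3p, miR-294-3p and miR-295-3p share with miR-302b-3p and miR-302d-3p, stood at 19014 and 384 RPM (49.5-fold) and at 1144 and 483 RPM (2.37-fold, below 1 on the deposited scale). AAAGUGC, carried by 6 members of the miR-17 group, was far more abundant in every library. It stood at 109235 and 45894 RPM in the male pair (2.38-fold) and at 62177 and 58320 RPM in the female pair (1.07-fold). miR-292a-3p and miR-302a-3p have no entry in the table and are left out of these sums.

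The miR-302 cluster, which marks pluripotent cells together with miR-290, showed small ratios. It took 0.0568% of the reads of PGC female, 0.0495% of SC female, 0.0677% of PGC male and 0.0334% of SC male (ratios of 1.15 and 2.03, or 0.477 and 1.08 on the deposited scale). Both PGC libraries lay above both SC libraries for the list, and none of its 3 tested arms passed. miR-302b-3p stood at 287 and 198 RPM in the female pair and at 351.2 and 188 RPM in the male pair, and miR-302d-3p at 178 and 197 RPM and at 224 and 101 RPM. In the later libraries of either fraction the cluster took at most 0.0239%.

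**Figure D4:**
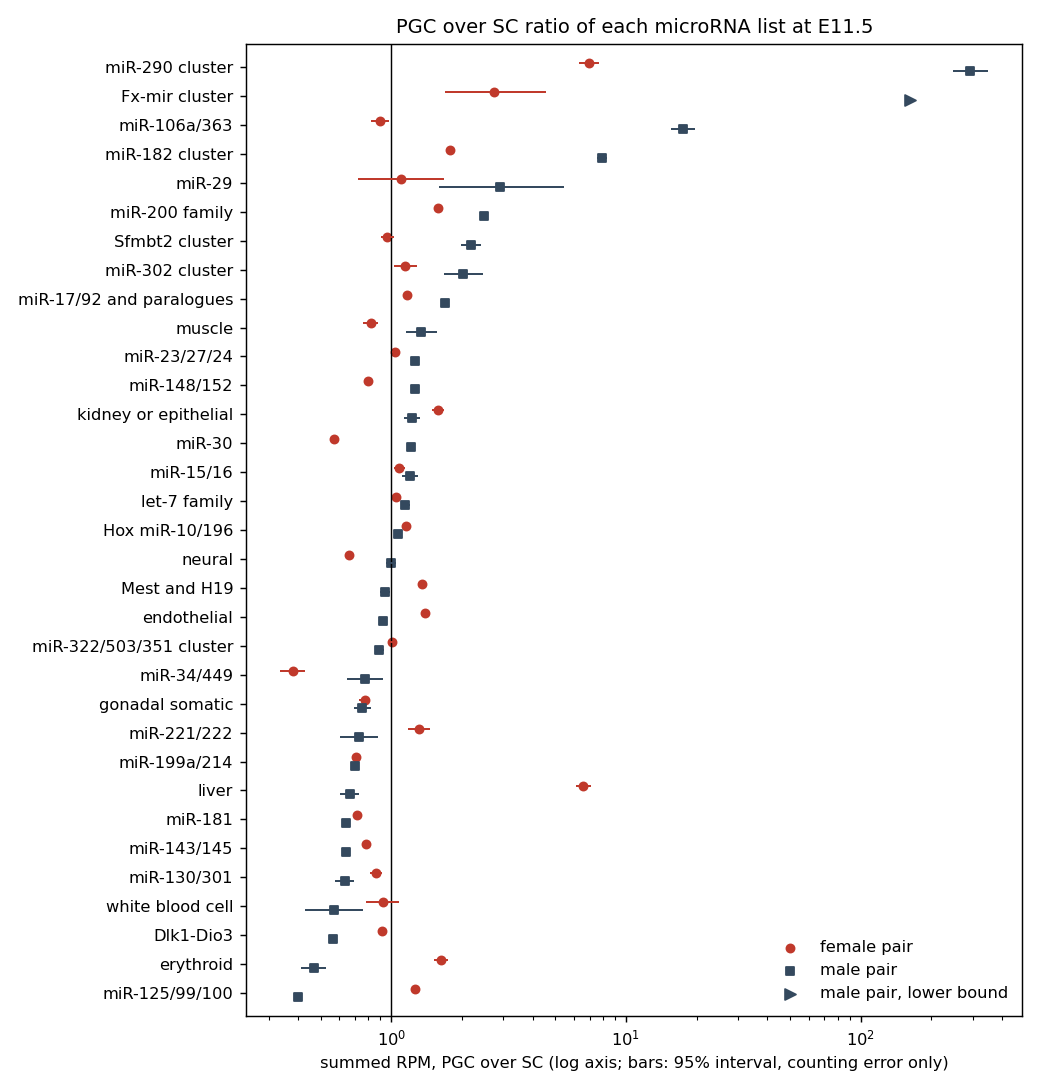
Ratio of the summed RPM of each list in PGC over SC for the female pair (red circles) and the male pair (dark squares), on a log axis, ordered by the male pair; bars are 95% intervals that cover counting error only, and the triangle is a lower bound because the list was at 0 in SC male. The miR-290 ratio is 6.98 in the female and 292.4 in the male pair, and most other lists lie within 2-fold of 1.

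Mesenchymal lists were lower in PGCs in both pairs, without passing the test. miR-199a/miR-214 took 5.05% of the reads of PGC female against 7.11% of SC female (ratio 0.711), and 3.35% of PGC male against 4.77% of SC male (0.702), and 0 of its 6 members passed. miR-199a-5p stood at 12698 and 28884 RPM in the female pair and at 11235 and 18338 RPM in the male pair. miR-199a-3p and miR-199b-3p have the same mature sequence, and their summed level, higher than that of miR-199a-5p in each of the 4 libraries, differed less, with 34207 and 35957 RPM in the female pair (0.951) and 19222 and 22864 RPM in the male pair (0.841). miR-143/miR-145 took 4.68% and 5.98% in the female pair (0.782) and 3.28% and 5.12% in the male pair (0.641). In the later PGC libraries the same lists took 0.625 to 1.98% and 0.347 to 1.17%, below both PGC libraries of E11.5. The gonadal somatic list (miR-202, miR-140 and miR-455) took 0.273% and 0.355% in the female pair and 0.269% and 0.358% in the male pair. Here both SC libraries lay above both PGC libraries.

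The imprinted Dlk1-Dio3 list took 13.2% of PGC female, 14.4% of SC female, 9.01% of PGC male and 15.9% of SC male, ratios of 0.917 and 0.567. Of its 76 tested members, 3 passed as lower in the male pair and 0 as higher, with a median log2 difference of -0.81 in the male pair and 0.05 in the female pair, against -0.18 and 0.08 over all 473 microRNAs. miR-411-5p stood at 9988 and 11896 RPM in the female pair and at 7317 and 13983 RPM in the male pair, and miR-370-3p at 5618 and 7875 RPM and at 3960 and 10386 RPM.

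Lists of other cell types were present in all 4 libraries. The endothelial miR-126a took 5.14% of PGC female, 3.71% of SC female, 2.78% of PGC male and 3.005% of SC male, against 0.467 to 1.12% of the later PGC libraries. The 6 erythroid arms took 0.196%, 0.121%, 0.0977% and 0.209% in the same order, all 6 with reads in PGC female and both SC libraries and 5 in PGC male. miR-451a, the defining erythroid microRNA, stood at 1260, 746, 446 and 671 RPM. Of the 5 tested erythroid arms, 4 were higher in PGC in the female pair and 0 in the male pair. The exception in the female pair was miR-144-3p, with log2 differences of -2.92 (female pair) and -1.36 (male pair). The white blood cell list took 0.0176 to 0.0308%, the muscle list 0.0679 to 0.150%, and the kidney or epithelial list 0.168 to 0.359%. The neural list took 1.88% of SC female and 1.12 to 1.25% of the others, and miR-9-5p within it stood at 3026 RPM in SC female and 245 RPM in SC male, beside 981 (female) and 1901 RPM (male) in the PGC libraries. The part of such cells in the differences between fractions was not tested.

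The let-7 and miR-10/miR-196 lists had similar RPM in PGC and SC in both pairs. let-7, which rises as cells differentiate, had a PGC to SC ratio of 1.04 in the female and 1.15 in the male pair, and the Hox-linked miR-10/miR-196 list 1.16 and 1.07. On the deposited scale these ratios were 0.434 and 0.610 for let-7, and 0.481 and 0.569 for miR-10/miR-196. miR-10b-5p and miR-10a-5p were among the 3 most abundant microRNAs of every library, with 81577 and 68820 RPM in PGC female, 72305 and 57747 RPM in SC female, 47444 and 59767 RPM in PGC male and 51974 and 47647 RPM in SC male. miR-125/miR-99/miR-100 went opposite ways, with 9.30% and 7.37% in the female pair (1.26-fold) and 5.66% and 14.1% in the male pair (0.402). miR-99b-5p, the top microRNA of SC male with 60791 RPM, stood at 20946 RPM in PGC male, 29669 RPM in PGC female and 21986 RPM in SC female.

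**Figure D5:**
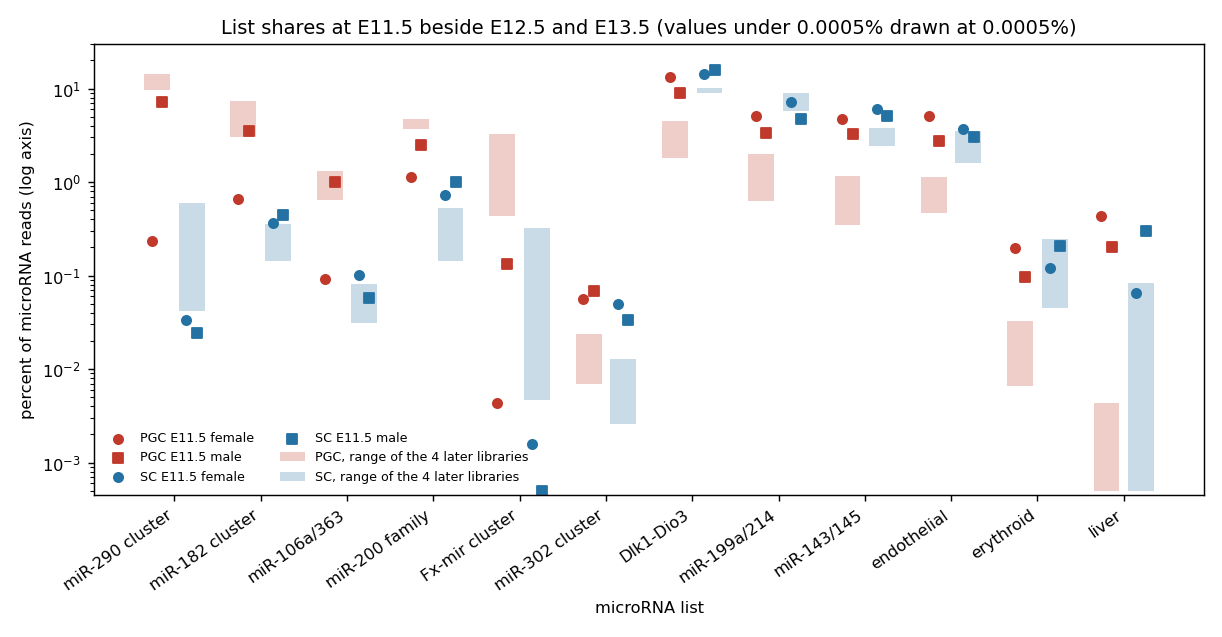
Percent of microRNA reads taken by 12 lists at E11.5 (circles female, squares male; red PGC, blue SC), on a log axis, beside the range of the 4 later libraries of the same fraction (shaded bars). For miR-290, PGC male at 7.13% lies just under the later PGC range and PGC female at 0.235% within the later SC range, while for Dlk1-Dio3, miR-143/miR-145 and miR-126a (endothelial) both PGC libraries lie above the later PGC range.

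The difference at E11.5 was finally set against the mean difference at E12.5 and E13.5, a contrast added after the data were seen, and 14 microRNAs passed (2.96%). limma called 10 microRNAs whose PGC minus SC difference was higher at E11.5 (2.11%) and 4 in which it was lower (0.846%). Of the 10, 5 were Dlk1-Dio3 arms (miR-379-5p, miR-379-3p, miR-411-5p, miR-329-5p and miR-666-5p), of which miR-379-5p stood at 15680 and 10972 RPM in the PGC libraries of E11.5 but at 1888 to 3084 RPM in the later PGC libraries (log2 2.49, adjusted p = 0.0173). The others were miR-335-5p, miR-143-5p, miR-152-3p, miR-34c-3p and the Fx-mir arm miR-547-3p, which was listed at 0 in all 4 libraries of E11.5. miR-335-5p, made from the imprinted Mest gene, stood at 6276 and 4244 RPM in the PGC libraries of E11.5 and at 378 to 1392 RPM in the later ones. The 4 lower were the Fx-mir arms miR-465a-3p, miR-465b-3p, miR-465c-3p and miR-871-5p, of which the first 3 were listed at 0 in all 4 libraries of E11.5. These 4 arms and miR-547-3p passed the filter on the mean only through their levels in the later libraries. The direction of their calls was therefore set by the filter. With a filter on the E11.5 mean, the contrast called 2 higher and 0 lower. miR-465a-3p, miR-465b-3p and miR-465c-3p have the same mature sequence and are 1 observation. None of the 14 miR-290 arms passed here, and all 14 differences were smaller at E11.5. With the PGC and SC libraries of the same stage and sex paired as a block, the contrast called 0 microRNAs in each direction (limma smallest adjusted p = 0.0670). The counts also fell to 0 and 0 without the library labelled PGC female, without SC male of E11.5, or without either SC library of E12.5, and rose to 32 and 48 without PGC male.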

How the data were processed

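Small-RNA libraries of 12 sorted gonad cell samples were used, 4 of them from E11.5. Per the labels and the values, the authors deposited 1 normalized signal value per microRNA and library (DESeq normalized counts), and the tools named in the submitters' processing notes are FastQC, Trim Galore, Bowtie and DESeq with the build GRCm38. How reads were assigned to microRNAs is not given in the sources used here. Every deposited value was 0 or a whole multiple of 1 step per library (tolerance 1e-06), so reads were recovered by taking the smallest value as 5 reads, and each library was rescaled to RPM. MicroRNAs with a mean of at least 10 RPM were tested with limma 3.58.1 (trend) on log2(RPM + 10), which understates changes of low microRNAs. Adjusted p-values are Benjamini-Hochberg with a threshold of 0.05. Each combination of fraction, stage and sex has 1 library, so the p-values reflect the spread of these libraries alone, which may be technical. Ratios use 5 reads for a listed 0 and exact 95% intervals that cover counting error only, since PCR copies are not independent molecules. The members and lists were chosen with earlier results of these data known. Named by rule were the 3 smallest p in each direction over both pairs, the 5 largest ratios per pair and direction from 500 RPM, the differences between pairs past the threshold, up to 4 abundant members per list, the 10 most abundant microRNAs of each library and all miR-290 and miR-302 arms. Other microRNAs named as called, or past 4-fold, were chosen after their values were seen. The fit was tested on simulated data. Other filters, pseudocounts, scalings, voom weights and left-out libraries were tried as alternatives.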

Additional observations from a re-analysis of the deposited data

Results flagged for a closer look

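The PGC minus SC difference of the microRNAs below was flagged as unlike in the female and the male pair in a limma fit. Each E11.5 library stands alone in that fit, so the spread comes from the later stages only. The calls depended on single later libraries and on the weighting. On the log2 scale (female pair minus male pair), the gap was -6.37 for miR-293-3p, -5.30 for miR-291a-5p, -4.90 for miR-294-3p, -4.90 for miR-295-3p, -4.88 for miR-291b-5p, -4.75 for miR-292a-3p, -4.72 for miR-290a-5p, -4.02 for miR-294-5p and -3.90 for miR-291a-3p, all of the miR-290 cluster. It was -5.29 for the Fx-mir arm miR-881-3p, -3.57 for miR-669d-5p of the Sfmbt2 cluster and 3.21 for miR-323-5p of Dlk1-Dio3.

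For 10 lists the summed level went opposite ways in the pairs with both counting intervals clear of a ratio of 1, and these differences were not tested. The PGC to SC ratio was above 1 in the female pair and below 1 in the male pair for liver (6.56 and 0.665), erythroid (1.62 and 0.467), endothelial (1.39 and 0.925), Mest and H19 (1.35 and 0.941), miR-221/miR-222 (1.31 and 0.730) and miR-125/miR-99/miR-100 (1.26 and 0.402). The order was the opposite for miR-30 (0.571 and 1.22), miR-148/miR-152 (0.799 and 1.26), muscle (0.818 and 1.34) and miR-106a/miR-363 (0.894 and 17.4). On the deposited scale the liver list alone of the 10 had a female-pair ratio above 1 (2.73).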

How the results depend on the processing

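On the deposited scale the counts became 9 higher and 6 lower for both pairs, 22 lower for the female pair, 18 higher and 18 lower for the male pair, 0 higher and 3 lower for the difference between the pairs, and 41 and 1 for E11.5 against later stages. That scale also moved the median log2 of all tested microRNAs in each pair to about -1. A pseudocount of 1 RPM gave 2 and 1 for both pairs, 2 and 1 for the female pair, 8 lower for the male pair, 4 higher for the difference and 31 higher against later stages, and one of 30 RPM gave 17 lower against later stages. Without a filter, both pairs had 2 lower, the female pair 14 higher and 22 lower, the male pair 23 lower, the difference 13 and 32, and E11.5 against later stages 3 higher. A filter on the E11.5 mean gave 1 and 2 for the female pair, 8 lower for the male pair, 4 and 17 for the difference and 2 and 0 against later stages. A filter at 100 RPM gave 0 lower for the male pair and 0 higher for the difference. Quantile normalization and voom weights, both added after seeing the data, gave 0 higher with 2 lower and 0 higher with 0 lower for the difference, and 18 and 0 lower against later stages. Voom weights also gave 2 and 1 for the female pair and 8 lower for the male pair. Apart from the alternatives that test fewer microRNAs, the cause was not tested.

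Leaving out 1 library at a time gave 0 to 29 higher and 0 to 6 lower for both pairs, 0 higher and 0 to 1 lower for the female pair, 21 to 28 higher and 4 to 9 lower for the male pair, 0 to 4 higher and 0 to 15 lower for the difference, and 0 to 32 higher and 0 to 48 lower against later stages. Without 1 PGC library of E11.5, the share of microRNAs above both SC libraries was 29.0 to 29.6% (16.5% with both) and the share below them 26.4 to 41.0% (17.5%), a comparison of 1 library with 2 that was added after seeing the data. All 30 calls of the male pair kept their sign on the deposited scale, where 23 still passed, and with voom weights, where 28 did. At a 2-fold limit the untested counts were 19 higher and 31 lower in the female and 42 and 64 in the male pair. At 4-fold among microRNAs of at least 500 RPM they were 2 and 3 in the female pair and 1 lower in the male pair, and at 4-fold on the deposited scale 3 and 40 in the female pair and 54 lower in the male pair.

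With the PGC and SC libraries of the same stage and sex paired as a block, both pairs had 0 higher and 0 lower. E11.5 against later stages had 0 and 0. Deviations of same-sex libraries from their group means correlated at -0.0884, 0.107 and 0.148 on E11.5, E12.5 and E13.5, so the libraries share a sex but did not deviate together at every stage. The planned edgeR alternatives were not run, because the deposited values are normalized and not raw counts, and voom weights were used in their place. The floors of 11.6 RPM (PGC male) and 8.18 RPM (SC male) limit what the male pair can show for low microRNAs.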
